A study of Mus musculus with 672 samples.

Results

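The 9 genes described here, Cdx2, Eomes, Elf5, Tfap2c, Gata2, Gata3, Ascl2, Hand1 and Peg10, regulate the trophoblast lineage of the mouse embryo and were followed in single cells during the reprogramming of fibroblasts to induced pluripotent stem cells (iPSCs). They were taken by symbol, 9 of the 26127 genes of the table, and all 9 were measured in all 567 cells. Cdx2, Eomes, Elf5 and Tfap2c act in the trophoblast stem state, Gata2 and Gata3 in its specification and in later trophoblast, and Ascl2, Hand1 and Peg10 in the placenta that forms from it. The name describes what the genes do in the embryo and not what the cells were. None of the 7 plates was a trophoblast sample.

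The cells were female mouse embryonic fibroblasts (MEFs) of passage 1 from a cross of Mus musculus (Mus), which carried a GFP transgene on its X chromosome, with Mus musculus castaneus (Cast). GFP-negative MEFs, with the Mus X inactive, gave the Xi-Mus cells, and GFP-positive MEFs, with the Cast X inactive, gave the Xi-Cast cells. Xi-Mus cells were collected as MEFs before induction (day 0, 86 cells), as intermediates at day 8 (82 cells), day 9 (83 cells), day 10 (80 cells) and day 12 (80 cells), and as iPSCs (90 cells). Xi-Cast cells were collected at day 12 (66 cells). By the study's methods, the MEFs were transduced with lentiviral tetO-FUW-OSKM and FUW-M2rtTA before the sort, and day 0 cells came from this sort. In these constructs doxycycline drives Oct4, Sox2, Klf4 and Myc, and day 0 cells were taken before it was given. Intermediates and iPSCs had been grown with doxycycline and ascorbic acid in mouse embryonic stem cell medium with LIF. Intermediates had been sorted on FUT4, the enzyme named in the labels for the surface carbohydrate SSEA1 of pluripotent cells, and the iPSCs were grown from picked colonies, over several passages in which neither agent was given. Shares of cells are thus shares of what the sort kept, not of the dish.

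Each group had 96 labelled cells and was taken as 1 plate, with no separate cultures or animals in the labels. Plates were therefore not tested against each other, and no difference between them has a replicate check. Levels are in reads per 100000 gene-assigned reads of a cell, and intervals are exact at 95% and cover counting error only. Depth ranged from 15053 to 2098345 reads per cell, with plate medians between 505799 and 726843. Sample titles carry 2 prefixes, read here as sequencing pools. Days 0, 8, 9 and 10 shared 1 prefix and both day 12 plates and the iPSCs the other. A difference between the 2 sets of plates thus cannot be told apart from the pool. The plates largely fitted their labels in other genes. At day 8 against day 0, 11 of a list of 12 genes of fibroblasts were 2-fold lower or more. Dcn, the remaining gene of that list, was higher (mean 55.4 against 5.13). Past 2-fold higher were 14 of 15 simple epithelial and 9 of 12 pluripotency genes. Among all genes 5.99% were lower and 8.22% higher, and among those that reached a mean of 5 in either plate 16.7% and 24.3%. One day 8 cell stood apart with Col1a1 at 1304 and 1 day 10 cell with the macrophage gene Lyz2 at 1022, and values that move without them are given where they do.

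The trophoblast is the first lineage to separate in the mammalian embryo and forms the placenta. In the mouse blastocyst TEAD4 and GATA3 act upstream of CDX2, and CDX2, EOMES, ELF5 and TFAP2C then maintain trophoblast stem cells through one another's genes. As these cells differentiate, ASCL2 keeps spongiotrophoblast precursors, HAND1 promotes giant cells, and GATA2 works in giant cells at prolactin family genes. The promoter of Elf5 is a known gatekeeper in this lineage: it is methylated in embryonic stem cells and unmethylated in trophoblast. Several of these genes also work elsewhere, Elf5 in the mammary and other epithelia, Gata2 in blood progenitors, Gata3 in lymphocytes and skin, and Tfap2c in germ cells.

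The start regions of Elf5, Gata2 and Cdx2 are printed because these genes differ most in the cells described here, with Elf5 and Gata2 in most intermediates and Cdx2 in almost none. Each window holds 250 bases before and 50 after a RefSeq start (GRCm38.p6), is written 5′ to 3′ on the strand of the gene, and has the dinucleotide CG in capitals, the site that DNA methylation can mark. Sequences were matched for 6 of the 9 genes, with a pair of starts each for Elf5 and Gata2.
Elf5, first start, chr2:103411848-103412147, plus strand: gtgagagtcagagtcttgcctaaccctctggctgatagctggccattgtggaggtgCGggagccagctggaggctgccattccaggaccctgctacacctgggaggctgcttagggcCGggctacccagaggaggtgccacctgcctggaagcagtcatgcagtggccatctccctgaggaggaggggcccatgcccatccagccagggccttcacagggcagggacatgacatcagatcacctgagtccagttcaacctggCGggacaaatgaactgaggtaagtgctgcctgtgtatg
Elf5, second start, chr2:103423818-103424117, plus strand: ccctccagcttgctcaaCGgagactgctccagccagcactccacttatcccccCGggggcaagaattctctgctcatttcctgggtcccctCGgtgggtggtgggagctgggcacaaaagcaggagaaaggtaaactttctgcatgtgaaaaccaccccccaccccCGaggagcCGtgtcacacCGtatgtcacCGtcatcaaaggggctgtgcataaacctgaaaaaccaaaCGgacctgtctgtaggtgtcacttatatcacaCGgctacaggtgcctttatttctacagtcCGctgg
Gata2, first start, chr6:88193641-88193940, plus strand: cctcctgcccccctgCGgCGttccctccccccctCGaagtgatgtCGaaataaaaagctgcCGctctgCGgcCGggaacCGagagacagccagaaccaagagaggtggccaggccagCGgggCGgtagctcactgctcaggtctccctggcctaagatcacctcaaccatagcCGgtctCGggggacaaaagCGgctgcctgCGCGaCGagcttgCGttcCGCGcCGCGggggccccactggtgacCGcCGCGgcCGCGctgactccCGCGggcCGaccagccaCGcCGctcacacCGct
Cdx2, chr5:147307200-147307499, minus strand: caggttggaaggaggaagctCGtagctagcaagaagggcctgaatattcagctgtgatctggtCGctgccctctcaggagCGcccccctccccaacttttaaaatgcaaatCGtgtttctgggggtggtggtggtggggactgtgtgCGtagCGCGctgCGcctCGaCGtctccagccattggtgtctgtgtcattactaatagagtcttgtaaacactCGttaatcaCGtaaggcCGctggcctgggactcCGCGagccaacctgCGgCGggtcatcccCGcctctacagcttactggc

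The windows of Elf5 held 3 CG sites at the first start and 10 at the second, below and above the median of 7 over 32851 promoters of this length. At least as many CG sites as the second Elf5 window were in 43.5% of promoters. Gata2 held 32 at its first start, matched or passed by 9.52% of promoters, and Cdx2 held 18 (29.7%). Gata3 held 22 and Ascl2 23, so the order of CG counts was not the order of the levels given below. Binding letters of the factors themselves were searched on both strands. The GATA motif (AGATAA or TGATAA) was in none of these windows and in 18.6% of all promoters, and the ETS motif CCGGAAGT was in none and in 3.89% of all. The AP-2 motif GCCNNNGGC, named for the family of Tfap2c, was found once in the Cdx2 window, once at the second start of Gata2 and 3 times in the Gata3 window, and in 16.6% of all promoters. The E-box CAGCTG was in the windows of Cdx2, Gata3, the first start of Elf5 and the second of Gata2, and in 16.3% of all. These are matches of letters and no record of binding. The first Elf5 window starts at base 103411848, inside the annotated gene, so it belongs to a later start than the outermost one.

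Cdx2, the homeobox factor that sets up the trophectoderm (chr5:147300805-147307270), was nearly without reads in every plate. It had reads in 1 of 82 cells at day 8 (a level of 0.197, from 1 read), in 1 of 83 at day 9 (2.80, from 21 reads) and in 1 of 66 Xi-Cast cells (2.29, from 48 reads). The other plates had none, which leaves room for up to 3.49% of cells with reads at day 0, 3.75% at day 10 and at day 12, and 3.33% in iPSCs. Over days 8, 9 and 10 together 2 of 245 cells (0.816%) had reads. The gene that heads the trophoblast stem network was therefore not detected in most intermediates at this depth.

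Eomes, the T-box factor needed for trophoblast stem cells and for mesendoderm (chr9:118478212-118486132), was rare in intermediates and more common in iPSCs. It had reads in no cell at day 0, in 6.1% of cells at day 8, 3.61% at day 9, 2.5% on day 10, 13.8% at day 12 (interval 7.07 to 23.3), 23.3% of iPSCs (15.1 to 33.4) and 6.06% of Xi-Cast cells. The means were 0.307, 0.0269 and 0.0457 at days 8, 9 and 10, 0.916 at day 12, 1.03 for iPSCs and 0.549 for Xi-Cast cells. Single cells carried much of the means outside iPSCs. Without the highest cell of each plate those of days 8, 9 and 10 were 0.128, 0.0107 and 0.0156. Without its highest cell (26.7) the day 12 mean was 0.589, and without its highest (26.5) the Xi-Cast mean was 0.149, while the iPSC mean was 0.923. The day 12 cell highest in Eomes, number 74 of its plate, was picked after its values were seen. It had T at 46.8, Gsc at 48.5, Foxa2 at 39.6 and Mixl1 at 6.03, all genes of the primitive streak and its derivatives, with Nanog at 34.7 and no read of Elf5, Gata2 or Peg10. Of 11 day 12 cells with Eomes reads, 1 had T (the only T cell of the plate), 2 had Mixl1 (of 2), 3 had Gsc (of 5), and 1 had Foxa2 (of 2). At days 8, 9 and 10 no cell had reads of T or Mixl1, Gsc had reads in 2, 8 and 3 cells, none of them with Eomes, and Foxa2 in 2 day 8 cells, both with Eomes. An antisense gene, Gm33460, overlaps Eomes and, as strand is not marked in these libraries, their reads cannot be told apart in the overlap. Gm33460 itself had reads in 10 cells against 46 for Eomes.

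Elf5, the ETS factor of trophoblast stem cells and of mammary alveolar cells (chr2:103411688-103450989), was at no read in all 86 cells of day 0 and had reads in most intermediates of days 8 to 10. It had reads in 73.2% of cells at day 8 (62.2 to 82.4), 77.1% at day 9 (66.6 to 85.6) and 83.8% at day 10 (73.8 to 91.1). The cells ranged from 0 to 58.5 at day 8 with a median of 9.24, from 0 to 37.1 at day 9 with a median of 5.32, and from 0 to 74.3 at day 10 with a median of 10.5. Means were 13.6, 7.99 and 13.4, and day 8 was 2300-fold above a floor of 3 reads over the whole day 0 plate. That floor counts reads and not cells, so the fold is not a lower limit. Up to 3.49% of day 0 cells could have reads. At day 12 the share was 46.2% (35 to 57.8), the median 0 and the mean 6.26, with the highest cell at 34.4. The day 12 plate thus held cells at the levels of day 9 beside a larger set with no read. Xi-Cast cells at day 12 were at a similar place, with 50% of cells, a median of 0.215, a mean of 7.44 and a highest cell of 52.2. In iPSCs 2 of 90 cells had reads, at 2.11 and 1.14, and the mean was 0.0362. The order did not rest on depth: after thinning of every cell to 100000 reads the shares were 69.1%, 71.6%, 81%, 45%, 2.27% and 49.2% for days 8, 9, 10 and 12, iPSCs and Xi-Cast.

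Tfap2c, the AP-2 gamma factor of trophoblast, surface ectoderm and primordial germ cells (chr2:172549593-172558622), was also at no read in all 86 cells of day 0, and it had its highest mean in iPSCs. Means were 3.37 at day 8, 4.84 at day 9, 3.24 on day 10, 3.59 at day 12, 8.59 for iPSCs and 2.02 for Xi-Cast cells. Shares were 48.8%, 66.3%, 56.2%, 43.8%, 66.7% and 30.3% in the same order. The intervals of day 9 (55.1 to 76.3) and iPSCs (55.9 to 76.3) nearly coincided, although the iPSC median, 5.46, was above that of day 9, 2.53. In day 8, day 12 and Xi-Cast cells the median was 0, and at day 10 it was 0.664. The 1 highest cell held 32% of the day 12 signal (92) and 41.5% of the Xi-Cast signal (55.3), and without it the means were 2.47 and 1.20.

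**Figure D1:**
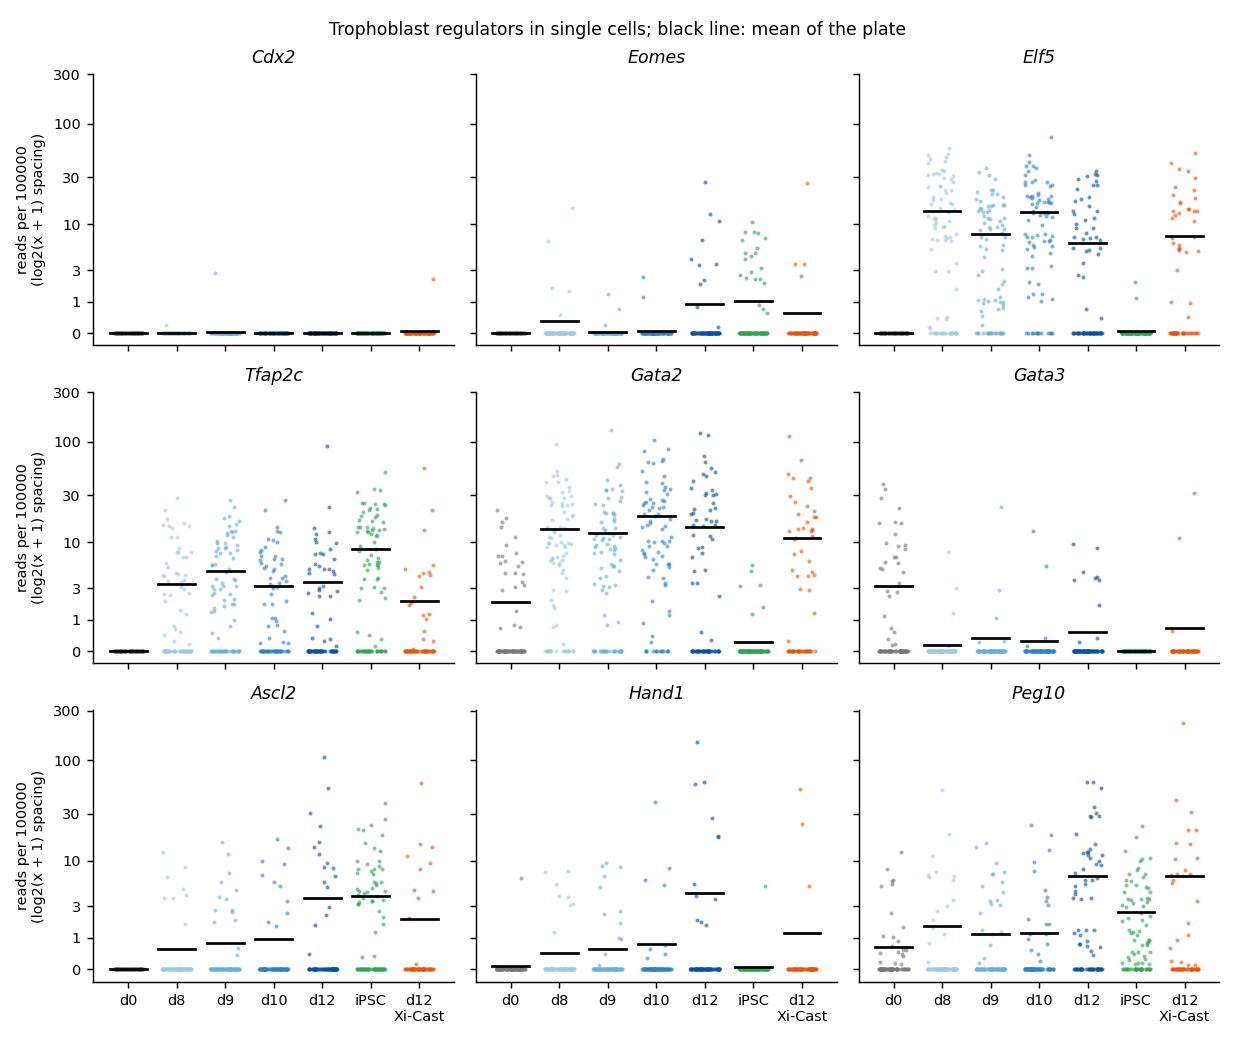
Level of each regulator in every cell, in reads per 100000 on a log2(x + 1) axis, by plate, with a black line at the plate mean. Elf5 and Gata2 fill most cells of days 8 to 10 (means 7.99 to 18.7), while Cdx2 and Gata3 stay near 0 there, and the high means of Hand1 and Ascl2 at day 12 come from a few cells, up to 149 and 106.

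Gata2, a zinc finger factor of trophoblast and of blood progenitors (chr6:88193891-88207032), had reads in a minority of MEFs and in most intermediates. The share was 27.9% at day 0 (18.8 to 38.6), 78% at day 8, 72.3% at day 9, 83.8% on day 10, 52.5% at day 12, 6.67% for iPSCs (2.49 to 13.9) and 54.5% for Xi-Cast cells. Levels ran from 0 to 21.5 at day 0 with a median of 0, and the medians at days 8, 9 and 10 were 9.20, 7.70 and 10.3, with highest cells of 96, 132 and 104. At day 12 the median was 1.44 and the highest cell 122. Means were 1.94 at day 0, 13.9, 12.4 and 18.7 at days 8 to 10, 14.3 at day 12, 0.223 for iPSCs and 11.1 for Xi-Cast cells. The day 12 mean was thus near those of days 8 to 10 although fewer cells had reads, and the cells with reads were higher.

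Gata3, the related factor that specifies trophectoderm beside CDX2 (chr2:9857078-9890034), went the other way from Gata2. It had reads in 33.7% of MEFs (23.9 to 44.7), with levels up to 38.5 and a mean of 3.22. At days 8, 9 and 10 it had reads in 4.88%, 6.02% and 5% of cells with means of 0.152, 0.329 and 0.241, or 0.0553, 0.0535 and 0.0759 without the highest cell of each plate, and at day 12 in 12.5% (6.16 to 21.8) with a mean of 0.513. No iPSC had a read, which allows up to 3.33% of cells. In Xi-Cast cells 3 of 66 had reads, and without the highest of them (31.6) the mean of 0.657 became 0.181. Of the GATA pair, intermediates thus had reads of Gata2 far more often than of Gata3, and MEFs had both at similar shares. Gata3 overlaps 3 other annotated genes, Gm13256, 4930412O13Rik and 9230102O04Rik, which were not analysed here.

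Ascl2, a maternally expressed imprinted basic helix-loop-helix factor of the spongiotrophoblast (chr7:142966829-142969264), was at no read at day 0 and most common in iPSCs. Its share was 9.76% at day 8, 16.9% at day 9, 13.8% on day 10, 21.2% at day 12 (12.9 to 31.8), 48.9% for iPSCs (38.2 to 59.7) and 16.7% for Xi-Cast cells. Means were 0.557, 0.788, 0.956, 3.81, 4.05 and 2.01. The day 12 and iPSC means were alike but differently made. At day 12 the highest cell, at 106, held 34.8% of the signal and the 90th percentile of cells was 8.68. In iPSCs the highest was 37.9, with 10.4% of the signal, and the 90th percentile was 10.2.

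Hand1, the helix-loop-helix factor of trophoblast giant cells, heart and extraembryonic mesoderm (chr11:57828705-57832818), was seen in few cells of any plate. It had reads in 1 of 86 MEFs (6.44), in 8, 12 and 8 cells at days 8, 9 and 10, in 12 of 80 cells at day 12 (15%, 8 to 24.7), in 1 of 90 iPSCs (5.29) and in 3 of 66 Xi-Cast cells. Its mean at day 12 was 4.37 against 0.759 at day 10, and the highest of the 12 cells, at 149, held 42.5% of it. The next highest cell stood at 61.6. One cell held 64% of the day 10 signal (38.9) and 1 cell 64.2% of the Xi-Cast signal (51.9), and without them these means were 0.277 and 0.446. Shares of cells differed less between day 12 and days 8 to 10 than the means did, with overlapping intervals.

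Peg10, a paternally expressed imprinted gene derived from a retrotransposon and required in the placenta (chr6:4747306-4760517), is the member that is not a transcription factor. It had reads in 24.4% of MEFs, 19.5%, 24.1% and 23.8% of cells at days 8, 9 and 10, 55% at day 12 (43.5 to 66.2), 66.7% of iPSCs (55.9 to 76.3) and 37.9% of Xi-Cast cells (26.2 to 50.7). Means were 0.633 at day 0, 1.58, 1.17 and 1.23 at days 8 to 10, 6.84 at day 12, 2.5 for iPSCs and 6.82 for Xi-Cast cells. Day 12 cells were higher than iPSCs when they had reads, with 61.5 as the highest cell and 19.6 as the 90th percentile, against 22.7 and 7.11. The Xi-Cast mean came from 1 cell at 230 for 51.1% of the signal, and without it was 3.39. Because Peg10 was often at a few reads, its shares moved with depth: after thinning they were 15.5% at day 0, 52.5% at day 12, 51.1% for iPSCs and 32.3% for Xi-Cast cells.

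**Figure D2:**
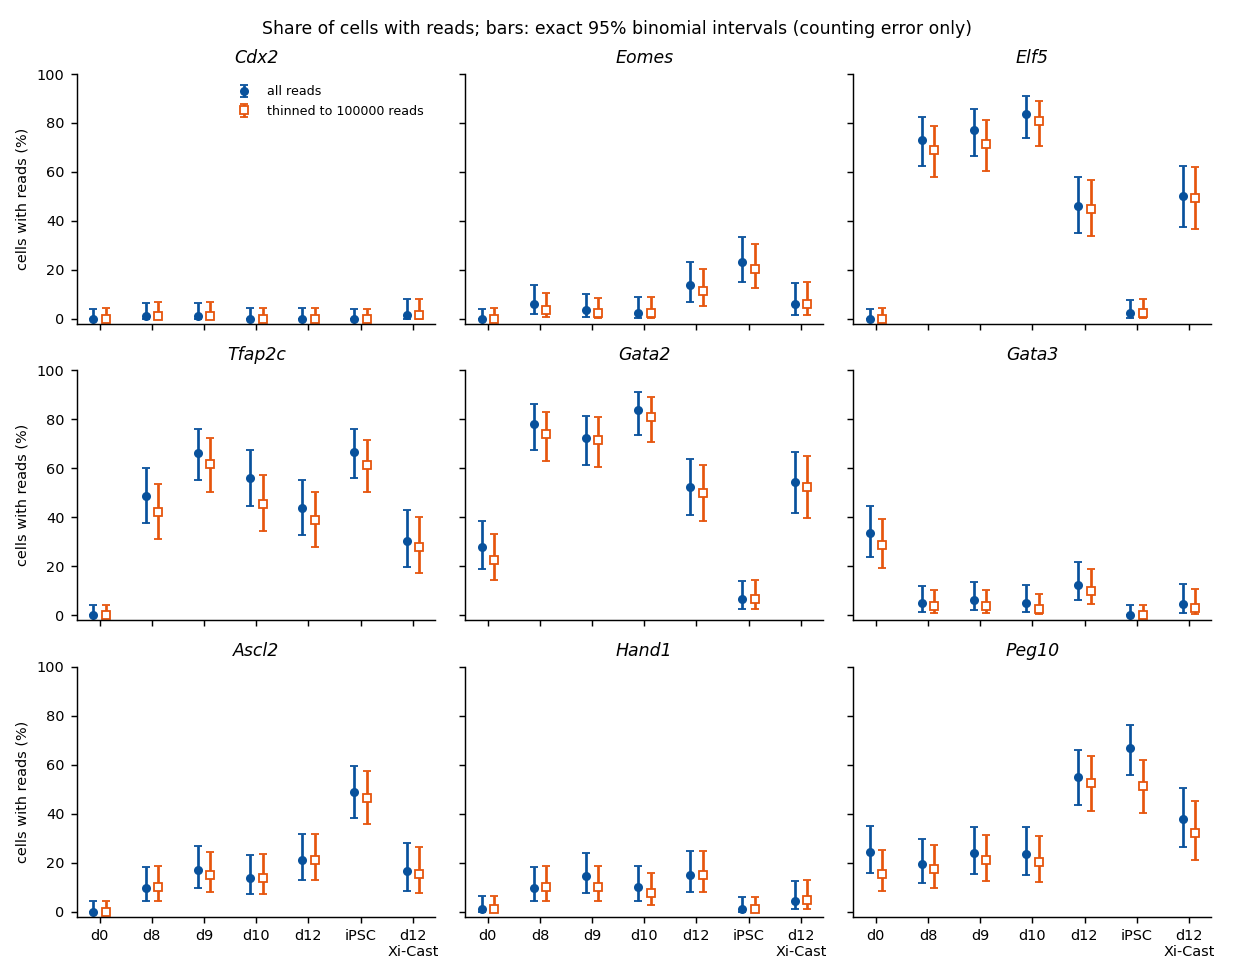
Share of cells with reads of each regulator by plate, in percent, from all reads (filled) and after thinning to 100000 reads per cell (open), with exact 95% binomial intervals that cover counting error only. Elf5 goes from 0 at day 0 to between 73.2% and 83.8% at days 8 to 10 and 2.22% in iPSCs, and Peg10 is the gene whose iPSC share moves most with thinning (66.7% against 51.1%).

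To compare genes with one another, levels were divided by exon length. Over the 245 cells of days 8, 9 and 10 the mean level per kilobase was 2.77 for Gata2, 1.98 for Elf5 and 1.04 for Tfap2c. It was 0.472 for Ascl2, 0.297 for Hand1, 0.199 for Peg10, 0.0606 for Gata3, 0.0305 for Eomes and 0.0054 for Cdx2. A set of 3 genes, Gata2, Elf5 and Tfap2c, thus stood above the other 6, and the same 3 had reads in 78%, 78% and 57.1% of these cells against at most 22.4% for any other member (Peg10). Cdx2, which acts beside Elf5 in trophoblast stem cells, was lowest on both measures.

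Plates were compared by the log2 ratio of their means, with 1 added to each, which understates differences of low genes. Between day 8 and day 0, 3 of the 9 regulators were at least 2-fold higher, Elf5 (3.87), Gata2 (2.34) and Tfap2c (2.13), and 1 was lower, Gata3 (-1.87, or -0.85 with per-cell log2 values averaged). By the same rule, 8.22% of all 26127 genes were higher and 5.99% lower. The members were chosen with earlier results of these data known, so a share above that of all genes is no result. Many of all genes also had hardly any reads. Among the 5334 genes that reached a mean of 5 in either plate, 24.3% were higher and 16.7% lower. Tfap2c and Ascl2 had no read at day 0, and their low day 8 means were 569-fold and 94-fold above a floor of 3 reads over that plate. This floor counts reads and not cells, so these folds are not lower limits. No read in 86 cells leaves room for up to 3.49% of cells, and at day 8 Ascl2 had reads in 9.76%. Gata2 was 7.13-fold higher.

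From day 8 to day 9 and from day 9 to day 10 no member was 2-fold higher or lower. Of all genes, 0.387% were higher and 0.299% lower in the first of these comparisons, and 0.674% higher and 0.157% lower in the second. The ratios furthest from 0 were those of Elf5, -0.70 from day 8 to day 9 and 0.68 from day 9 to day 10, so that day 10 returned to the level of day 8. Gata2 (0.56) and Tfap2c (-0.46) followed between days 9 and 10.

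Between day 12 and day 10, 3 members were at least 2-fold higher, Peg10 (1.82), Hand1 (1.61) and Ascl2 (1.30), the placental genes of the group, and none was lower, against 1.29% higher and 1.15% lower of all genes. These plates differ in pool as well as in day. Elf5 stood just inside the 2-fold limit at -0.99 (0.468-fold on the means), with Gata2 at -0.37 and Tfap2c at 0.11. Without the cells that had reads of at least 5 members, a choice that uses Hand1 itself, its ratio was 0.33, while those of Peg10 and Ascl2 were 1.63 and 1.17. When per-cell log2 values were averaged, which gives single high cells less weight, Peg10 was at 1.14, Hand1 at 0.35 and Ascl2 at 0.34, and Elf5 (-1.44) and Gata2 (-1.07) were past 2-fold lower. By these averages, then, Elf5 and Gata2 were lower and Peg10 higher at day 12. Shares of cells with reads, at day 10 and day 12, were 83.8% and 46.2% for Elf5 and 83.8% and 52.5% for Gata2. For Peg10 they were 23.8% and 55%. Gata2 cells with reads were not lower, with medians of 15.2 at day 10 and 18.7 at day 12. The means of Hand1 and Ascl2 rested on few cells.

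Between iPSCs and day 12, plates of 1 pool, 4 members were at least 2-fold lower, Gata2 (-3.65), Elf5 (-2.81), Hand1 (-2.34) and Peg10 (-1.16), and Tfap2c was higher (1.06). Of all genes 5.6% were lower and 1.46% higher, and of genes that reached a mean of 5 in either plate 15.3% and 5.07%. Hand1 (-0.52) and Peg10 (-0.43) were within 2-fold when per-cell log2 values were averaged, and also without cells of 5 or more members (-0.37 and -0.57). Gata3 had no read in iPSCs, and its day 12 mean was 99.7-fold above a floor of 3 reads over the iPSC plate. That is not a lower limit, as the floor counts reads and not cells. Up to 3.33% of iPSCs could have reads, against 12.5% of day 12 cells that did. Eomes (0.08) and Ascl2 (0.07) had near equal means. Between iPSCs and day 0 Tfap2c (3.26), Ascl2 (2.34), Peg10 (1.10) and Eomes (1.02) were at least 2-fold higher and Gata3 (-2.08) and Gata2 (-1.27) lower, against 8.93% higher and 8.21% lower of all genes, and 28.8% and 25.1% of those that reached a mean of 5. With per-cell log2 values averaged, Tfap2c (2.24) and Ascl2 (1.38) were past 2-fold higher and no member was lower. These comparisons share the iPSC plate.

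Between Xi-Cast and Xi-Mus cells at day 12, Hand1 (-1.27) was the only member 2-fold lower in Xi-Cast and none was higher, against 0.869% lower and 0.26% higher of all genes. It was at -1.29 without the highest cell of each plate, at -0.35 with per-cell log2 values averaged, and came from 12 Xi-Mus and 3 Xi-Cast cells with reads. Elf5 (0.22), Gata2 (-0.34) and Gata3 (0.13) were close in both plates. Peg10 had near equal means (6.82 and 6.84) and a ratio of -0.70 without the highest cell of each plate, and Ascl2 (-0.68) and Tfap2c (-0.61) were lower in Xi-Cast. Genotype of the inactive X and plate cannot be told apart here.

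**Figure D3:**
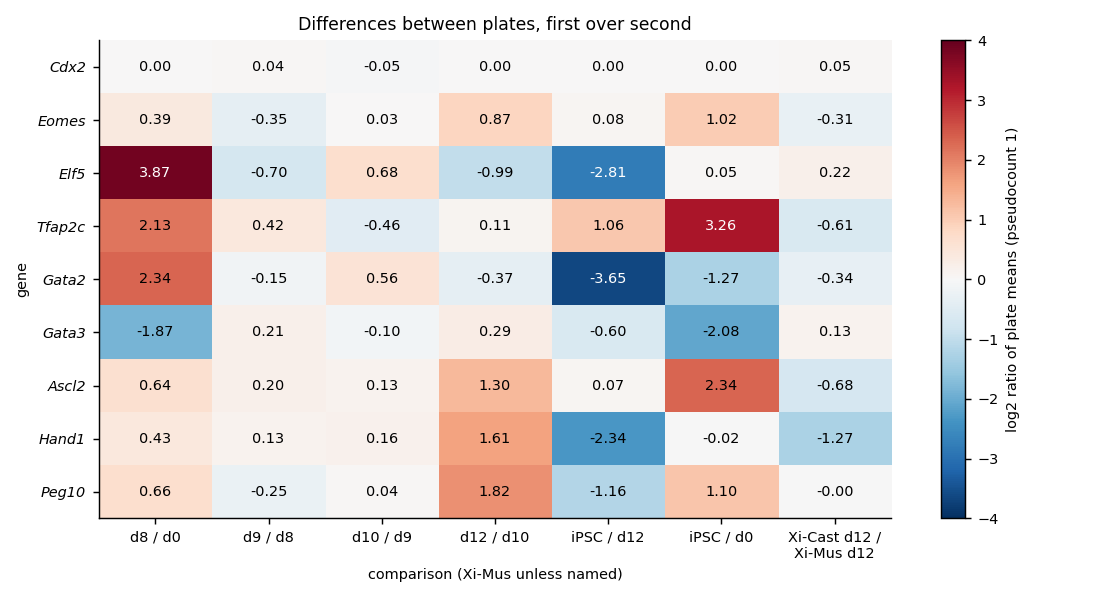
Log2 ratio of plate means (first over second, with 1 added to each mean) for the 9 regulators in 7 comparisons. Elf5, Gata2 and Tfap2c lead the comparison of day 8 with day 0 (3.87, 2.34, 2.13), Peg10, Hand1 and Ascl2 that of day 12 with day 10 (1.82, 1.61, 1.30), and Gata2 and Elf5 are lowest in iPSCs against day 12 (-3.65, -2.81).

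Cell by cell, a MEF had reads of a median of 1 of the 9 regulators, intermediates of 2 or 3, and iPSCs of 2. At least 3 members had reads in 1 of 86 cells at day 0, in 37 of 82 at day 8, 53 of 83 at day 9, 48 of 80 at day 10, 44 of 80 at day 12, 31 of 90 iPSCs and 18 of 66 Xi-Cast cells. After thinning these were 0, 30, 47, 40, 40, 22 and 14 cells. At least 5 members had reads in 25 of the 567 cells, 8 of them at day 12 and none at day 0. The highest number was 7, in 1 day 10 and 1 day 12 cell, and no cell had reads of all 9.

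**Figure D4:**
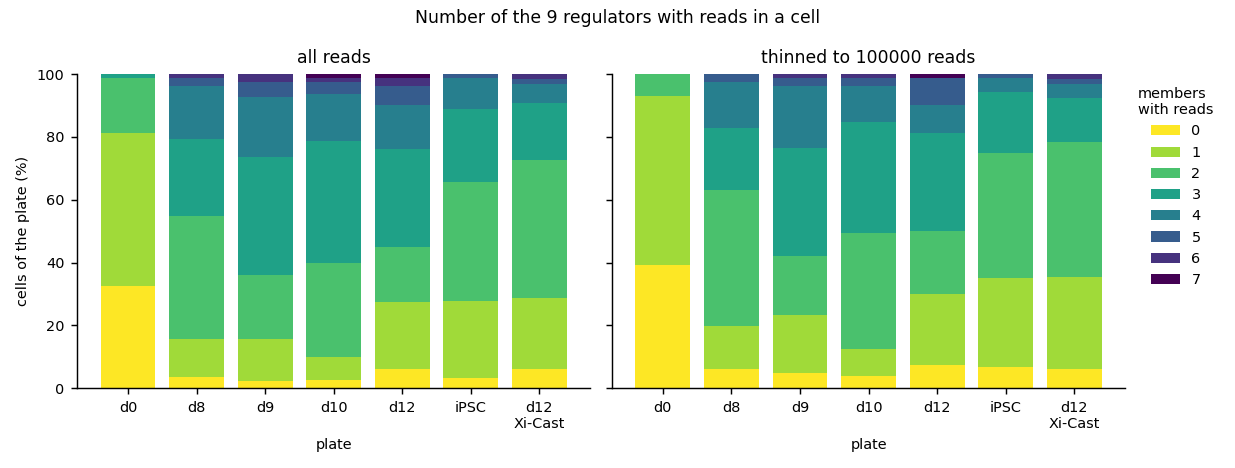
Percent of cells of each plate by how many of the 9 regulators had reads, from all reads (left) and after thinning to 100000 reads per cell (right). Day 0 holds 1 cell with 3 or more members, and day 9 holds 53 of 83.

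Pairs of regulators were then counted in the same cells. Elf5 and Gata2 had reads in the same cell in 49 cells at day 8, 49 at day 9 and 62 at day 10, where independent detection would give 46.8, 46.3 and 56.1. At day 12 they met in 30 cells where 19.4 would be given, or 29 and 18 after thinning, and in Xi-Cast cells in 27 where 18 would be given. Elf5 met Tfap2c in 24 day 12 cells (16.2) and Gata2 met Hand1 in 11 of the 12 Hand1 cells (6.3). Peg10 and Elf5 were apart, with 15 shared cells at day 12 against 20.4, and 6 against 12.5 in Xi-Cast. Elf5 and Ascl2 shared 4 day 12 cells (7.86) and 1 Xi-Cast cell (5.5). All 10 Gata3 cells of day 12 had Peg10 reads (5.5), and 13 of 17 Ascl2 cells did (9.35). In iPSCs Tfap2c and Peg10 met in 40 cells, the number that independence gives. These counts describe 1 plate each, whose cells share a sort and a library pool.

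Levels across cells showed the same division. The values that follow are Pearson correlations of log2(level + 1) across cells of the plates named, given as descriptions. Cells of a plate share a library and differ in depth, and over the cells of days 8 to 10 the correlation of each member with log depth lay between -0.063 and 0.155. Elf5 and Gata2 were at 0.29 over the 245 cells of days 8 to 10 (0.18, 0.31 and 0.36 by day), 0.61 over the 80 cells of day 12 and 0.38 over the 66 Xi-Cast cells. Gata2 followed the simple epithelial genes, at 0.36, 0.77 and 0.70 in the same order, and the keratinocyte genes at 0.39, 0.79 and 0.76, and it went against the pluripotency genes at -0.20, -0.72 and -0.63. With the keratin gene Krt8 it was at 0.29, 0.79 and 0.73. Elf5 was at 0.32, 0.53 and 0.46 with the epithelial list, at 0.35, 0.75 and 0.54 with the keratinocyte list, and at 0.00, -0.58 and -0.33 with the pluripotency list. In both day 12 plates Elf5 and Gata2 were thus higher in cells with more epithelial and fewer pluripotency reads.

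The other members differed from this pair. Among iPSCs Tfap2c was at 0.52 with the pluripotency list and 0.45 with Dppa5a, and at day 12 at 0.44 with the epithelial list and -0.22 with the pluripotency list. Peg10 was at -0.30 with Elf5 at day 12 and -0.42 in Xi-Cast cells, and at 0.44 with Hand1 at day 12. Eomes at day 12 was at 0.51 with a mesoderm list (Spearman 0.19), which rests on the cell with T, Gsc and Mixl1 described above. Ascl2 in Xi-Cast cells was at 0.42 with the differentiated trophoblast list and at 0.05 without the cell highest in Plac1.

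**Figure D5:**
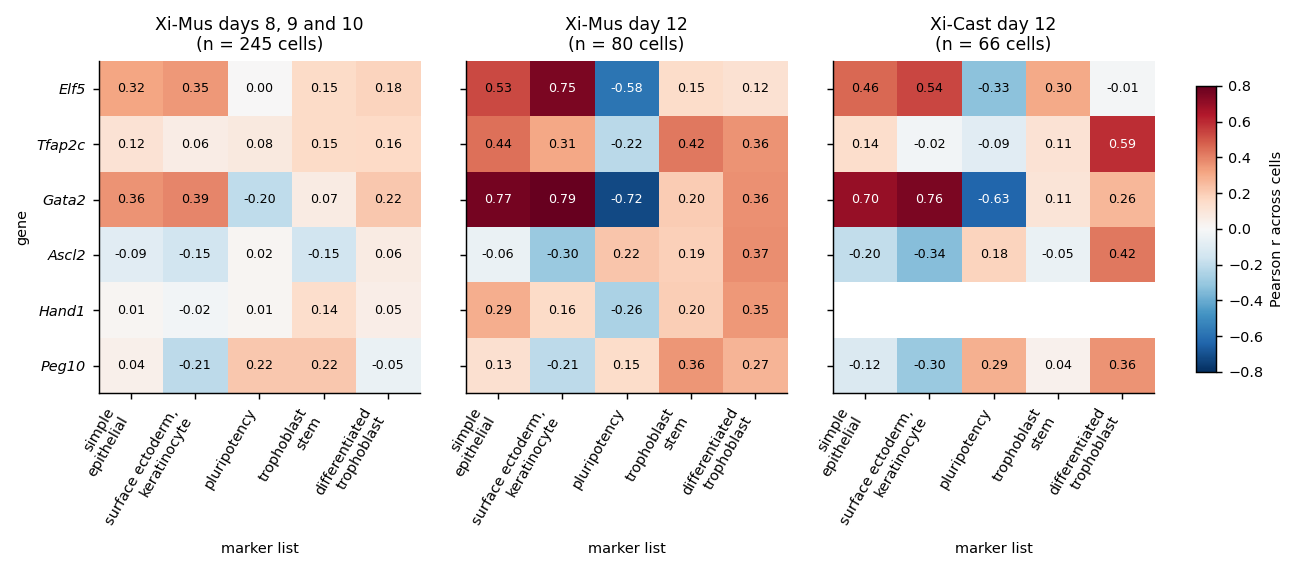
Pearson correlation across cells of 6 regulators with 5 marker lists, for days 8 to 10 together (245 cells), Xi-Mus day 12 (80 cells) and Xi-Cast day 12 (66 cells), with Hand1 left blank in Xi-Cast, where 3 cells had reads. Gata2 and Elf5 are positive with the epithelial and keratinocyte lists in all 3 (0.32 to 0.79), and negative with the pluripotency list at day 12 (-0.72 to -0.33).

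A few day 12 cells carried several regulators at once at high levels. They are described by number and were picked after their values were seen. Xi-Cast cell 22 had reads of 6 members, with Ascl2 at 59.7, Tfap2c at 55.3, Hand1 at 51.9, Peg10 at 41, Gata2 at 21 and Cdx2 at 2.29, and none of Elf5, Eomes or Gata3. The same cell had Plac1 at 191, Phlda2 at 189, Plet1 at 131, Rhox6 at 52.4, Cdkn1c at 55 and Dlx3 at 41.2, all genes of trophoblast or placenta, with no read of Nanog and Dppa5a at 1.10. It was also the deepest cell of all plates, at 2098345 reads. It was 1 of 2 Xi-Cast cells with Plac1 reads, and the plate mean of 2.93 became 0.0381 without it.

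Among Xi-Mus day 12 cells, cell 26 had reads of 7 members, with Hand1 at 61.6, Peg10 at 60.7, Tfap2c at 22.9, Gata2 at 22.1, Elf5 at 9.04, Eomes at 4.10 and Ascl2 at 2.31. Plet1 was at 133 and Krt7 at 134, and Nanog at no read. Cell 27 had the highest Hand1 (149), with Peg10 at 28.3, Eomes at 12.8, Gata3 at 9.55 and Gata2 at 8.89. Cell 28 had the highest Ascl2 (106) and Tfap2c (92), with Peg10 at 54 and Gata2 at 25.3. Cell 47 joined Peg10 (61.5), Ascl2 (53.2) and Gata2 (49.1) with the imprinted cell cycle inhibitor Cdkn1c at 90.4. The high ends of Ascl2, Hand1, Tfap2c and Peg10 at day 12 thus lay in a handful of cells, in which different members led. The day 10 cell with 7 members, cell 58, had Peg10 at 12.9, Gata2 at 10.4, Tfap2c at 9.03 and Hand1 at 5.37, with Dppa5a at 267 and Nanog at 19.5.

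Other trophoblast genes were read from 2 lists. Of 14 trophoblast stem genes, 4 were at least 2-fold higher at day 8 than at day 0 and 4 lower, beside the 8.22% and 5.99% of all genes, with a list median of 0.22 against 0.00 over all genes and 0.32 over genes that reached a mean of 5. The higher ones were Plet1 (3.91), Tead4 (3.01), Sox2 (2.14) and the pluripotency and trophoblast factor Esrrb (1.92). Reads of Sox2 from the transgene, if any, were not separated from those of the gene itself. The lower ones were Bmp4 (-2.42), Cdh3 (-2.42), Fgfr2 (-2.23) and Klf5 (-1.84). Plet1, a surface protein gene of trophoblast progenitors, had means of 0 at day 0, 14.1, 27.4 and 24.1 at days 8 to 10, 39.9 at day 12, 1.89 for iPSCs and 28.7 for Xi-Cast cells, and Tead4 0.708, 12.8, 17.7, 12.3, 11.1, 0.941 and 10.9. Both were thus high in the plates with Elf5 and Gata2 and low in MEFs and iPSCs. Of 20 differentiated trophoblast genes 11 had values among the 26127 genes. Prl3d1, Prl3b1, Prl2c2, Prl8a9, Tpbpa, Syna, Synb, Ctsq and Ctsj had none. Whether these genes had no reads in any cell or were left out for another reason was not checked. The list thus covers only part of differentiated trophoblast. Of the 11, 1 was at least 2-fold higher at day 8, near the 8.22% of all genes. It was the imprinted placental growth regulator Phlda2 (33.9 against 0.155). Of the others, Rhox5 had means from 0.989 to 6.72 in intermediates and 24.9 in iPSCs, Dlx3 from 0.719 to 2.07 in intermediates, and Cited1 and Cdkn1c reached 3.49 and 3.41 at day 12. Some were near 0: Plac1 was at most at 0.199 in every plate but Xi-Cast, the syncytiotrophoblast factor Gcm1 at most at 0.445 and the pregnancy-specific glycoprotein gene Psg21 at most at 0.0071 in any plate.

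Between day 12 and day 10, plates of different pools, 3 of the 11 differentiated trophoblast genes were at least 2-fold higher: Cdkn1c (1.69), Cited1 (1.41) and Rhox5 (1.35). Higher in the same comparison were 9 of 12 pluripotency genes, 1.29% of all genes and 3.46% of genes that reached a mean of 5. Between iPSCs and day 12, Ly6a (-4.96), Plet1 (-3.82), Tead4 (-2.64) and Ets2 (-1.71) were lower and Klf5 (1.55), Rhox9 (1.44), Esrrb (1.30) and Rhox6 (1.08) higher. The stem list thus differed in both directions, as the 9 regulators did. The epithelial genes moved with the lower ones, 10 of 15 at least 2-fold lower in iPSCs. In that comparison 5.6% of all genes were lower and 1.46% higher. What part the epithelial genes had in the Elf5 and Gata2 differences was not tested. Between Xi-Cast and Xi-Mus at day 12, Fgfr2 (-1.01) was lower, and Plac1 (1.71) was higher through Xi-Cast cell 22.

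Keratin genes were high in the same plates as Elf5 and Gata2. Krt8 had means of 0.0433 at day 0, 211, 227 and 196 at days 8 to 10, 196 at day 12, 1.42 for iPSCs and 180 for Xi-Cast cells, and the basal keratin gene Krt14 0.00417, 40.5, 58.4, 45.2, 42.7, 0.208 and 52.1. Trp63, the defining factor of basal keratinocytes, had a mean of 0.134 at day 0 and reads in 1 cell of the other plates, an iPSC. Of 10 markers of mammary luminal cells, where Elf5 also acts, 6 had values, and Csn2, Csn3, Wap and Ltf had none. Krt7 was high at day 12 (60.7, and 38.2 in Xi-Cast), and Cd14 and Aldh1a3 reached 3.47 and 1.88 there. The others of the 6 were low, with Prlr at most at 0.274, Esr1 at most at 0.212 and Foxa1 at most at 0.997 in any plate. Of 12 surface ectoderm and keratinocyte genes, 6 were at least 2-fold higher at day 8 than at day 0 and 0 lower. Of all genes 8.22% were higher and 5.99% lower. The higher genes included Krt17, with a mean of 350 at day 8, Perp (89.5) and Sfn (22.3). Krt5 (0.790) and Krt15 (0.00155) were low there. The intermediate plates thus had reads of several keratinocyte genes with none of Trp63. They had few of the receptor genes Prlr and Esr1.

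Genes most like each member were found over the 245 cells of days 8 to 10, among 10362 genes with reads in at least 20% of those cells. Elf5 was close to the transglutaminase gene Tgm1 (0.42) and the mitochondrial creatine kinase gene Ckmt1 (0.41). Gata2 was nearest to the lamin gene Lmna (0.39), the desmosome gene Dsp (0.37) and Mall (0.35). Peg10 was nearest to Sgce (0.35), its neighbour in the same imprinted cluster, Soat1 (0.34) and the imprinted RNA H19 (0.34). For Tfap2c the highest value was 0.26 (Fbxo11), for Ascl2 0.30 (AC154671.1) and for Hand1 0.34 (Gm17816). Over the 7 plate means, where 6306 genes reached a mean of 5 in 1 plate, Elf5 was nearest to Sh3bp1, Muc4 and Rapgef4 (0.998, 0.996 and 0.994), Gata2 to Rab11fip5, Ppp1r15a and Mpzl3 (from 0.995), Ascl2 to Tdrd12, Kdm5b and Syce2 (from 0.997), Tfap2c to Haus3, Lbr and Bex2 (from 0.989), Hand1 to Sprr2b, Acpp and Klk6 (from 0.986) and Peg10 to Tmem88, Ppdpf and Aire (from 0.977). These values rest on 7 points, the same plates for all genes.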

How the data were processed

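Expression was measured by Smart-seq2, which amplifies whole polyadenylated transcripts of 1 sorted cell per well, with Nextera XT libraries sequenced single-end. As the study's methods describe, the authors used STAR 2.5.3a for alignment to the mouse build mm10, featureCounts for reads per gene and Seurat for filtering and scaling. SAMtools is also in the submitters' processing notes. The deposited values are the natural log of 1 + reads per 10000 gene-assigned reads of a cell. The methods state a scale of 100000, to which the values were converted here. Whole reads were recovered for 100% of the 3980842 values above 0 (tolerance 0.01), which gave each cell's depth. The table held 567 of 672 labelled cells, all above 4000 and under 10000 genes. Reads were amplified and carry no molecular identifiers, so they do not count molecules and intervals cover counting error only.

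Each group was taken as 1 plate and treated as 1 sample. For each gene the mean over cells was compared between plates as a log2 ratio with a pseudocount of 1, without a test, and genes past 2-fold were counted among members and among all genes. Shares of cells carry Clopper-Pearson intervals, and a count of 0 is given with the limit of 3 counts. Cells were also thinned to 100000 reads, leaving out 9 shallower cells. The script was tested on simulated data. The 2 pools used 384 and 288 index pairs, 288 of them in both. Doublets were not called, and whether a well held more than 1 cell was not checked. Named genes were the 9 members, the 3 genes most correlated with each common member (reads in at least 10% of day 8 to 10 cells) over cells and over plate means, and from each marker list the genes past 2-fold (up to 6) and those with the highest and lowest ratio. Some genes that meet this rule are not reported here. Members and lists were chosen with earlier results of these data known. Other pseudocounts, scalings, cell sets and averages were tried. Gene coordinates and overlaps are from GENCODE M21 on the same build, and the authors' annotation may differ. The tools were Python 3.11.15, numpy 2.4.6, pandas 2.3.3, scipy 1.17.1 and matplotlib 3.10.9.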

Additional observations from a re-analysis of the deposited data

How the results depend on the processing

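With no replicates, each value rests on 1 plate, and reads of a gene in few cells limit the means of Eomes, Gata3, Hand1 and Ascl2. Of the log2 ratios under the alternatives, 460 stayed within 1.5-fold of the value reported, 43 moved further and 1 reversed. The reversed one was Hand1 between Xi-Cast and Xi-Mus day 12, at 0.084 without the cells in which 5 or more members had reads, an alternative chosen after seeing the data that drops cells partly for their Hand1 reads; Ascl2 was then at -1.01. Of the counts of members past 2-fold, 98 stayed within 1.5 times and 14 moved further. Shares over all genes were not computed under the alternatives that follow, so these counts have none beside them. With a pseudocount of 0.1, which makes ratios of all low genes larger, 7 members were higher at day 8 than at day 0 (3 with 1). With it, 1 was lower at day 9 than at day 8 (0) and 1 was lower at day 12 than at day 10 (0). With the mean of per-cell log2 values, 0 were lower at day 8 (1), 1 was higher at day 12 than at day 10 (3) and 2 lower (0), 2 were lower in iPSCs than at day 12 (4), 2 higher and 0 lower in iPSCs than at day 0 (4 and 2), and 0 lower in Xi-Cast than Xi-Mus (1). With summed reads, 1 was lower at day 12 than at day 10 (0) and 0 lower in Xi-Cast (1). Without the cells high in Col1a1 and Lyz2, chosen after seeing the data, 1 was lower at day 12 than at day 10 (0), since Elf5 then passed the limit. Without the cells of 5 or more members, 2 were higher at day 12 than at day 10 (3) and 2 lower in iPSCs than at day 12 (4), with Hand1 at -0.37 and Peg10 at -0.57. Of shares of cells with reads, 119 stayed and 7 moved after thinning or with at least 5 reads, and 35 alternatives for 15 of the correlations (Elf5 and Gata2 with each other and with the epithelial and pluripotency lists), with Spearman's rho, single days or without the Xi-Cast cell highest in Plac1, moved them by at most 0.2. The correlations of Eomes with mesoderm and of Ascl2 in Xi-Cast, not among these, moved further, as given above. The shares of all genes past 2-fold were larger among genes that reached a mean of 5. No paired analysis was possible because the result comes from no test and replicate numbers only name cells.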

Other observations

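Genes of other extraembryonic and germ layer lineages had reads in some intermediates. Gata4, a factor of primitive endoderm, had means of 0 at day 0, 0.760, 2.02 and 0.932 at days 8 to 10, 0.473 at day 12, 0.192 for iPSCs and 0.813 for Xi-Cast cells, and had reads in 27.7% of day 9 cells. Gata6 was at most at 0.736 and Sox17 at most at 0.117 in any plate. Of 10 mesoderm genes, Fgf8 was the 1 at least 2-fold higher at day 8 than at day 0 (2.94, with reads in 30.5% of cells, against 0), with 4.78 in iPSCs and no read in Xi-Cast cells. Krt7, a keratin gene of trophoblast and of glandular epithelia, had means of 1.75 at day 0, 4.35, 11.8 and 18.8 at days 8 to 10, 60.7 at day 12, 0.467 for iPSCs and 38.2 for Xi-Cast cells, with Krt8 between 180 and 227 in the intermediates.

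Single cells with 5 or more regulators were few at every day (3, 6, 5 and 8 at days 8, 9, 10 and 12). Day 12 cell 37 had Hand1 at 58, Plet1 at 533 and Krt18 at 3975, and day 10 cell 46 had Hand1 at 38.9 and Krt18 at 1662. Xi-Cast cell 50 had Peg10 at 230 and Hand1 at 23.7. The day 8 cell high in Col1a1 had Elf5 at 9.66, Eomes at 6.69 and no read of Gata2, and the day 10 cell high in Lyz2 had reads of none of the 9 regulators. These cells were picked after their values were seen.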
